A study of Mus musculus with 31 samples.

Results

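The 10 enteroendocrine genes described here were followed through mouse colon at day 7 post induction in 31 RNA-seq libraries of 3 genotypes. They are the granins Chga and Chgb, the hormone genes Gcg, Pyy, Insl5, Cck, Sct and Sst, the serotonin-synthesis gene Tph1 and the transcription factor gene Neurod1. They were taken by symbol from a table of 27623 genes, and all 10 were found. The DHO group (n = 10) carried an intestinal epithelial cell knockout (IEC-KO) of both TAK1 and Tradd. The HO group (n = 10) carried the IEC-KO of TAK1 alone, and the WT group (n = 11) kept Tak1 f/f alleles. All 31 libraries, WT included, came from mice homozygous for Ripk1 D138N, an allele whose kinase is inactive, so the WT group is not a wild type at Ripk1. The stated question was what TRADD contributes to colitis once epithelial TAK1 is missing. The Cre driver, the inducing agent, the sex and the age of the mice are not stated in the labels. They also do not say whether each library is a separate animal, so the p-values rest on the spread among libraries, which may in part be technical.

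Enteroendocrine cells are scattered, hormone-secreting cells of the gut epithelium that sense luminal contents and release peptides and serotonin towards blood vessels and nerve endings. They derive from the same crypt stem cells as the rest of the epithelium, through the transcription factor NEUROG3 and then NEUROD1. In the colon the L cells make the products of Gcg, Pyy and Insl5, the enterochromaffin cells make serotonin through TPH1, the D cells make somatostatin, and the chromogranins are carried in the secretory granules of most of these cells. Some of the genes are also active outside the epithelium, since enteric neurons express Sst, Cck and the chromogranins, and mouse mast cells express Tph1.

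The tissue was whole colon, in which fewer cells of a type and less RNA per cell cannot be told apart. The deposited FPKM values, which scale fragments to gene length and library size, implied a depth of 30788275 to 40391630 fragments per library. The targeted gene Tradd, encoding an adaptor of the TNF receptor pathway, lay between 1.36 and 3.89 FPKM in the DHO libraries, between 12.4 and 59.2 FPKM in HO and between 45.9 and 97.5 FPKM in WT. Map3k7, which encodes TAK1, lay between 8.42 and 16.7 FPKM in DHO, between 11.6 and 16.9 FPKM in HO and between 8.29 and 13.6 FPKM in WT, and a gene-level value in whole tissue does not measure a deletion in the epithelium. Of the 14 epithelial markers, all 14 fell in HO against WT, against 38.4% of all genes tested. The summed marker level was 4923 to 10160 FPKM in DHO, 10.96 to 7068 FPKM in HO and 6732 to 8802 FPKM in WT. Libraries that stood apart were HO replicate 2, with 543 FPKM of the epithelial gene Epcam against 0.646 to 103 FPKM in the other HO libraries, and DHO replicates 8 and 9, with 1782 and 317 FPKM of the neutrophil gene S100a8 against a DHO median of 2.75 FPKM. HO replicate 2 also held no Hoxb13 or Hoxd13, genes of the distal gut, and 1.23 FPKM of Gata4, a gene of the proximal gut, where the other 9 HO libraries held at most 0.0803 FPKM of Gata4. These position genes were chosen after their values were seen. Results that rest on these 3 libraries are given with and without them.

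Upstream sequences of 4 of the genes are shown. Chga, Chgb and Sst carry the same few letters and Sst changed against the direction of the granins. Gcg is the 1 gene of the 10 with 2 matches to the E-box spelling CAGATG. The cyclic AMP response element, in the spelling TGACGTNA on either strand, lay in the 250 bases before the start of 3 of the 10 genes, Chga, Chgb and Sst, and in 2.52% of all 32851 RefSeq promoter windows of that length. The E-box spelling CAGATG, on either strand, lay before 4 of the 10 genes, Gcg, Insl5, Cck and Sct, and in 14.4% of all windows. All 10 genes had a window. None of the 10 genes held both motifs, and a match describes the letters, not binding. Other spellings of the E-box were not searched and are not marked. The sequences are from RefSeq on GRCm38.p6, 5′ to 3′ in the direction of transcription. Capitals mark the cyclic AMP response element in the first 3 and the spelling CAGATG in Gcg.
Chga, chr12:102554691-102554940, plus strand: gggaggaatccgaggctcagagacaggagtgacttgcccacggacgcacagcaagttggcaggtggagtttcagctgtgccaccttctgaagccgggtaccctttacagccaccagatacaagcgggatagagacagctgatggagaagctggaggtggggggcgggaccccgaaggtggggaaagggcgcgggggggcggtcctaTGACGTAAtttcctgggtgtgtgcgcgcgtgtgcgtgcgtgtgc
Chgb, chr2:132781392-132781641, plus strand: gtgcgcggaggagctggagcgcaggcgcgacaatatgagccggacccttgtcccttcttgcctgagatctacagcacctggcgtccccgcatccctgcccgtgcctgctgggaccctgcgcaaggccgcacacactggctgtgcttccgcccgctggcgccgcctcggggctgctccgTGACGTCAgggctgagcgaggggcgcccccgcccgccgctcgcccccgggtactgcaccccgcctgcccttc
Sst, chr16:23890845-23891094, minus strand: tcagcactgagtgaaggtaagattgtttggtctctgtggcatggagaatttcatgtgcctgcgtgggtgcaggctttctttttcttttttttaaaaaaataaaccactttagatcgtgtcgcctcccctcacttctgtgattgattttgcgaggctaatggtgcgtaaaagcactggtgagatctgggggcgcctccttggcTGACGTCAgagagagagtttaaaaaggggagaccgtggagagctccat
Gcg, chr2:62483654-62483903, minus strand: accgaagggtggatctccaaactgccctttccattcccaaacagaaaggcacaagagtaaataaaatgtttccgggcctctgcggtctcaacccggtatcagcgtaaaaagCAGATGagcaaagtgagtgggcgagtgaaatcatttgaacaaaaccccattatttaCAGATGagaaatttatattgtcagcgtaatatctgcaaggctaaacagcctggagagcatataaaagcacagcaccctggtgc
The element begins 44 bases before the start of Chga, 72 bases before that of Chgb and 48 bases before that of Sst. Its letters are fully palindromic in Chgb and Sst. Starts are those of the RefSeq promoter windows, and the Sst window lies inside the gene span given below (23889573 to 23891342). The CAGATG matches of Gcg begin 139 and 83 bases before its start.

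Adding the Tradd knockout to the TAK1 knockout was compared first (DHO against HO). Of the 10 genes, 8 reached at least 1 FPKM in at least 10 libraries and were tested in limma on log2(FPKM + 0.5) together with all such genes. Among the 8, 7 rose in DHO against HO and 1, Sst, fell, at an adjusted p under 0.05. Of all 12812 genes tested, 39% rose and 29.7% fell, together 68.7%. The median log2 fold change of the 8 genes was 2.46, against 0.10 over all tested genes. In 4 of the 8 every DHO library lay above every HO library, which held for 7.27% of all tested genes, and none of the 8 lay wholly below, as 7.39% did.

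In the TAK1 knockout against the intact group (HO against WT), 7 of the 8 tested genes fell and Sst rose, while 38.4% of all tested genes fell and 33% rose, together 71.4%. The median log2 fold change was -2.05, against -0.06 over all tested genes. In 3 of the 8 every HO library lay below every WT library, as in 15.9% of all tested genes, and none lay wholly above, as 16.1% did. In the double knockout against the intact group (DHO against WT), none of the 8 passed the threshold in limma, against 12.5% of all tested genes that rose and 8.7% that fell, together 21.2%. At an unadjusted p under 0.05 there was 1, Tph1 (p = 0.0260). In this fit each gene has 1 variance for all 3 groups, so the SE of DHO against WT also draws on the HO spread. Fitted with these 2 groups alone, Gcg (0.95, limma adjusted p = 0.0389) and Pyy (0.45, adjusted p = 0.0305) passed as higher in DHO. The share of all tested genes that passed in that fit is not reported here, and the 21.2% above belongs to the fit of all 3 groups. No gene of the 8 had groups that did not overlap, against 0.468% of all tested genes with DHO wholly above and 0.0859% with DHO wholly below. The median log2 fold change of the 8 was 0.41, against 0.02 over all tested genes. The 3 comparisons share libraries pairwise, so their values are given side by side and are not independent.

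**Figure D1:**
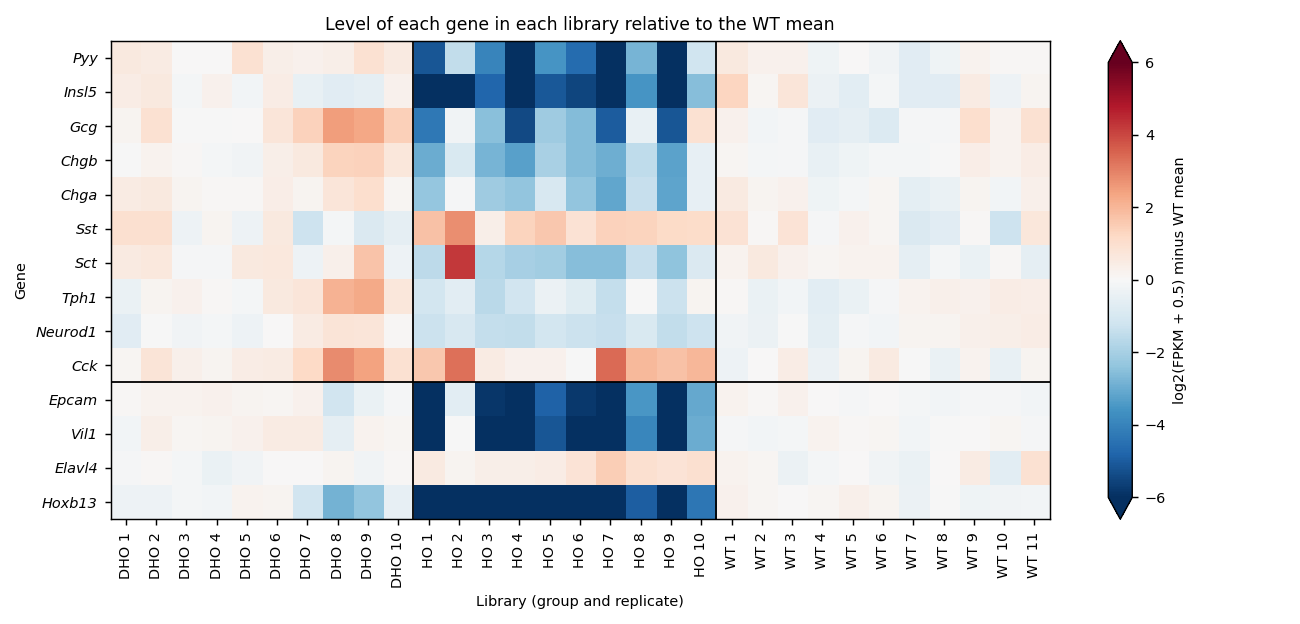
Level of the 10 enteroendocrine genes, and of the epithelial genes Epcam and Vil1, the neuronal gene Elavl4 and the distal gut gene Hoxb13, in each library (columns, DHO then HO then WT) as log2(FPKM + 0.5) minus the mean of the 11 WT libraries; the colour scale ends at 6 in either direction. Most of the HO block is blue for the L cell genes and the granins and red for Sst, and HO replicate 2 is red for Sct and dark blue for Insl5.

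The granins came out as follows. CHGA and CHGB are acidic proteins that pack hormones into dense-core granules. Chga (chromosome 12, 102554941 to 102565027, GRCm38) had a lowest, median and highest level of 28.9, 34.5 and 56.4 FPKM in DHO, 2.70, 5.58 and 26.3 FPKM in HO and 18.1, 30.1 and 40.4 FPKM in WT. Every DHO library lay above every HO library, while 2 HO libraries, replicates 2 and 10, reached into the WT range with 26.3 and 19.5 FPKM. Chga rose by 2.23 ± 0.28 (log2, SE) in DHO against HO (limma adjusted p = 3.59e-08) and fell by 1.84 ± 0.28 in HO against WT (adjusted p = 5.74e-07). Between DHO and WT the difference was 0.38 ± 0.28 (adjusted p = 0.330).

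Chgb (chromosome 2, 132781642 to 132795079) had a lowest, median and highest level of 35.4, 51.0 and 108 FPKM in DHO, 3.97, 6.05 and 29.3 FPKM in HO and 30.6, 39.7 and 57.2 FPKM in WT. No HO library reached the DHO or the WT range, and the 2 highest DHO values, 106.8 and 108 FPKM, were replicates 8 and 9. DHO replicates 7 and 10, with 63.78 and 66.64 FPKM, lay above every WT library too. Chgb rose by 2.69 ± 0.29 in DHO against HO (limma adjusted p = 1.38e-09) and fell by 2.26 ± 0.28 in HO against WT (adjusted p = 1.84e-08). The difference between DHO and WT was 0.43 ± 0.28 (adjusted p = 0.280), and 0.20 ± 0.28 without DHO replicates 8 and 9.

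**Figure D2:**
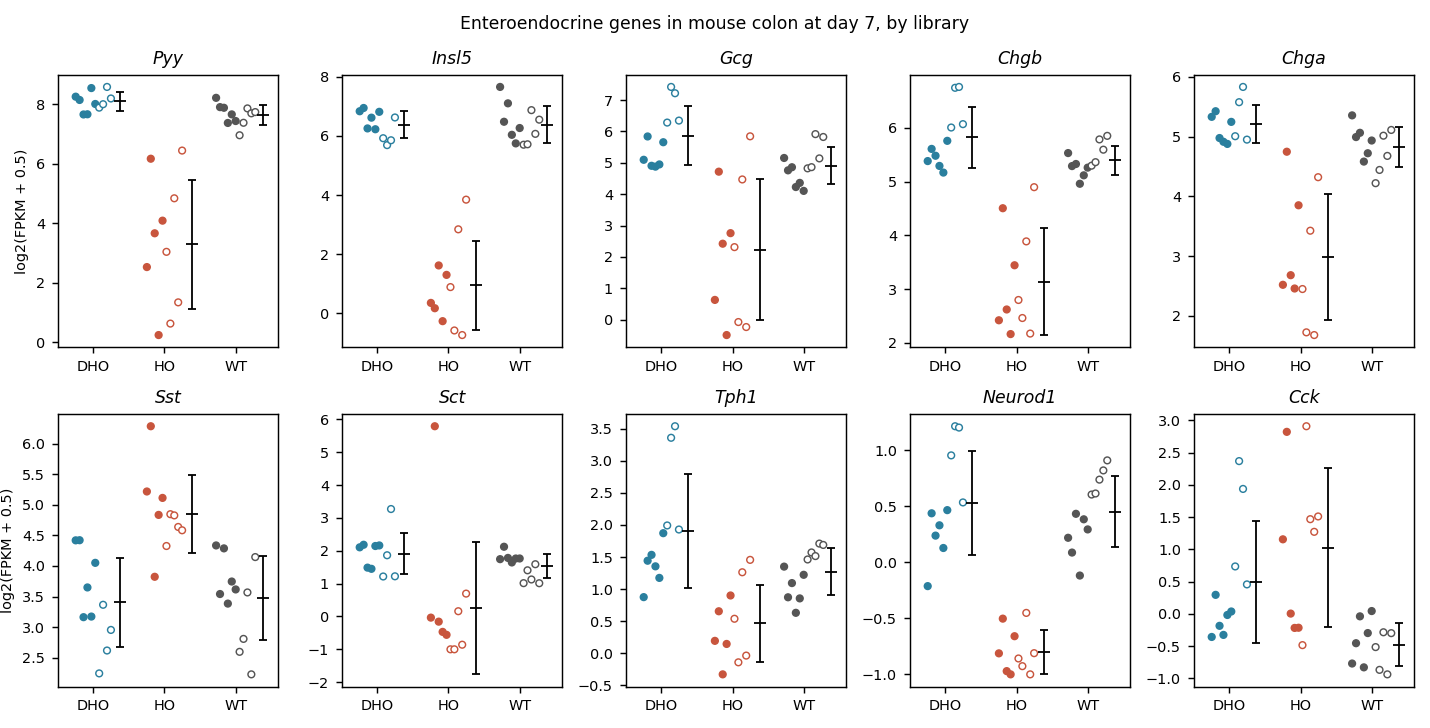
Level of each of the 10 genes in each library, as log2(FPKM + 0.5), with DHO, HO and WT from left to right in each panel; bars give the mean and SD of the group, and open points are the libraries with 6.27 FPKM or more of the noncoding RNA Gm15564. The HO medians lie below both other medians for 8 genes, with HO replicate 2 far above its group for Sct, and above them for Sst and Cck.

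The L cell hormones showed the widest changes. GCG is the precursor of glucagon-like peptides 1 and 2, which act on insulin release and on mucosal growth, PYY slows gut transit and lowers appetite, and INSL5 is a relaxin-family peptide of colonic L cells that acts through the receptor RXFP4. Pyy (chromosome 11, 102106676 to 102107832) had a lowest, median and highest level of 200.6, 269 and 381 FPKM in DHO, 0.680, 9.92 and 86.3 FPKM in HO and 123, 206 and 296 FPKM in WT. The HO libraries stood below all others, and the highest of them, replicate 10 with 86.3 FPKM and replicate 2 with 71.2 FPKM, were also the HO libraries with most Epcam. Pyy rose by 4.79 ± 0.54 in DHO against HO (limma adjusted p = 3.59e-09) and fell by 4.35 ± 0.52 in HO against WT (adjusted p = 1.10e-08).

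Insl5 (chromosome 4, 103017872 to 103027271) had a lowest, median and highest level of 51.2, 86.9 and 123 FPKM in DHO, 0.102, 1.07 and 13.9 FPKM in HO and 51.7, 76.6 and 202 FPKM in WT. All HO libraries were far below the other groups, and HO replicate 2, with its high Epcam, held only 0.629 FPKM. Insl5 rose by 5.43 ± 0.41 in DHO against HO (limma adjusted p = 1.78e-12) and fell by 5.44 ± 0.40 in HO against WT (adjusted p = 4.69e-13), the largest changes among the 8 tested genes. Between DHO and WT the difference was 0.00 ± 0.40 (adjusted p = 0.996), and that of Pyy was 0.45 ± 0.52 (adjusted p = 0.573). With DHO and WT fitted alone, Pyy passed as higher in DHO, as given above.

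Gcg (chromosome 2, 62474530 to 62483653) varied more within groups. Its lowest, median and highest levels were 28.9, 53.4 and 171 FPKM in DHO, 0.210, 4.66 and 57.0 FPKM in HO and 16.7, 28.5 and 59.9 FPKM in WT. HO replicates 10, 2 and 8 held 57.0, 25.8 and 21.7 FPKM, inside the WT range, while the other 7 held at most 6.26 FPKM. At the top of DHO stood replicates 8 and 9 with 170.9 and 149 FPKM, above every WT library. DHO replicates 10 and 7, with 80.96 and 77.45 FPKM, also lay above every WT library. Gcg rose by 3.63 ± 0.61 in DHO against HO (limma adjusted p = 4.75e-06) and fell by 2.68 ± 0.60 in HO against WT (adjusted p = 0.000199). The difference between DHO and WT was 0.95 ± 0.60 (adjusted p = 0.262), and 0.58 ± 0.62 without DHO replicates 8 and 9. With DHO and WT fitted alone, Gcg passed as higher in DHO, as given above.

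**Figure D3:**
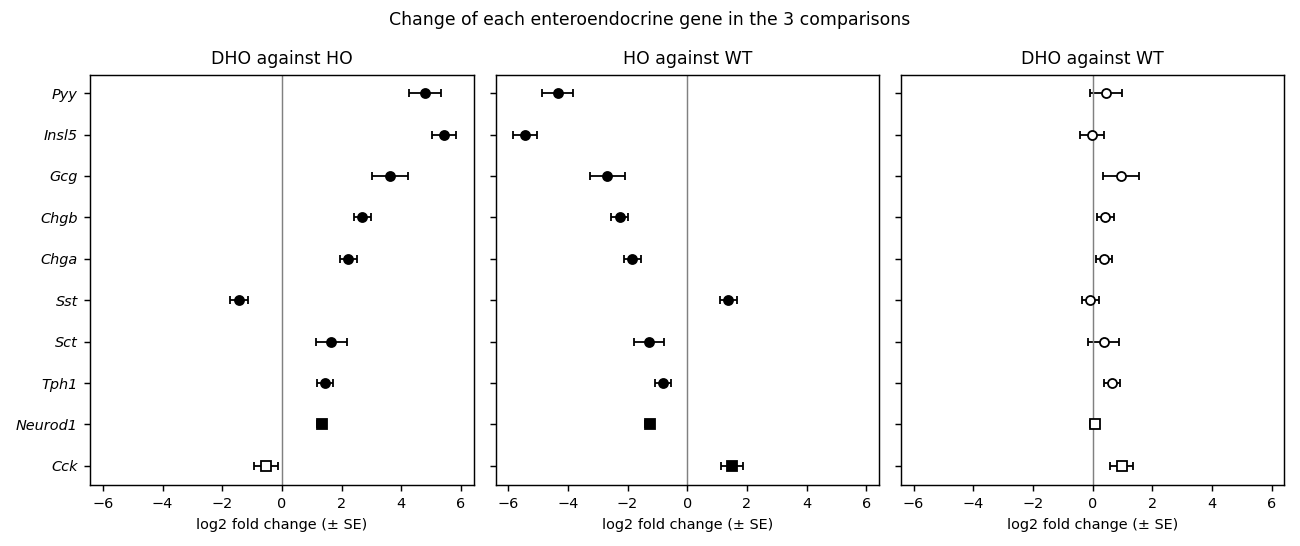
Log2 fold change of each of the 10 genes with its SE in DHO against HO, HO against WT and DHO against WT, from the limma fit over 31 libraries; filled symbols passed an adjusted p of 0.05, and squares mark the 2 genes fitted without the filter on low values. Sst is the lone one of the 8 tested genes below 0 in DHO against HO and above 0 in HO against WT, and no symbol is filled in DHO against WT.

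The 3 L cell genes did not change in proportion. Within a library, the ratio of Gcg to Pyy, each as FPKM + 0.5, had a median of 0.200 in DHO, 0.513 in HO and 0.124 in WT. Every HO library lay above every WT library, with 0.268 as the lowest HO value and 0.267 as the highest WT value. On the log2 scale the ratio was 1.67 higher in HO than in WT (permutation test, n = 10 and 11, adjusted p = 9e-05, over 9 such tests) and 1.17 lower in DHO than in HO (adjusted p = 0.00774). Insl5 moved the other way relative to Gcg. The Insl5 to Gcg ratio had a median of 2.19 in DHO, 0.474 in HO and 2.62 in WT, 1.81 higher on the log2 scale in DHO than in HO (adjusted p = 0.0108) and 2.76 lower in HO than in WT (permutation test, adjusted p = 9e-05). Within DHO and within WT, both ratios also differed with the level of Gm15564, as given below.

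Relative to Pyy, Insl5 was 1.09 lower on the log2 scale in HO than in WT (permutation test, adjusted p = 0.0108), and 0.69 lower without HO replicate 2. None of the 3 ratios passed between DHO and WT, where the differences were 0.50, -0.45 and -0.95 for Gcg to Pyy, Insl5 to Pyy and Insl5 to Gcg (adjusted p = 0.151, 0.0633 and 0.0588), and 0.18, -0.25 and -0.43 without DHO replicates 8 and 9. The added 0.5 FPKM pulls ratios towards 1 where both genes are low, as in HO replicates 4, 7 and 9. On plain FPKM, the Gcg to Pyy ratio spanned 0.171 to 0.773 in HO and 0.0971 to 0.265 in WT, so that the groups overlapped, and Insl5 to Gcg spanned 0.0244 to 1.59 in HO and 1.66 to 5.74 in WT without overlap.

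**Figure D4:**
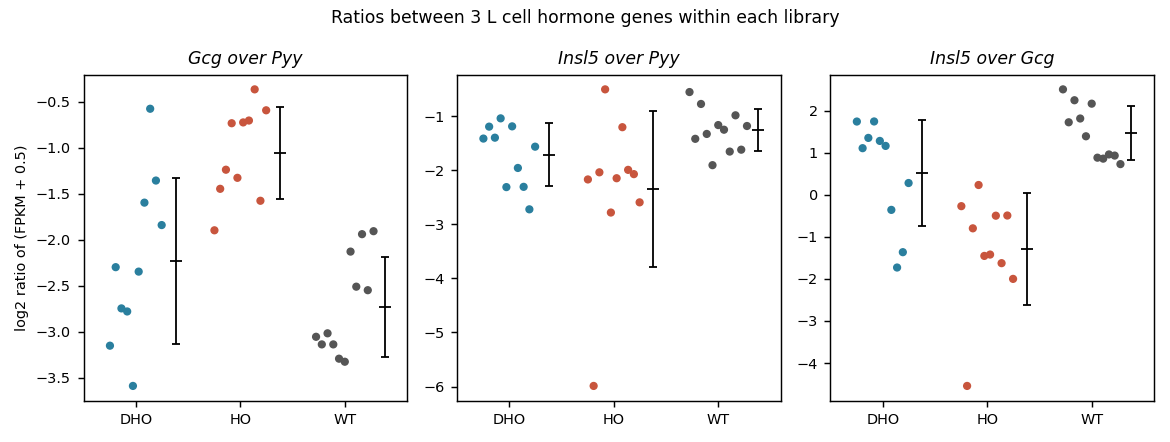
Ratios between the hormone genes Gcg, Pyy and Insl5 in each library, on a log2 scale of FPKM + 0.5, with DHO, HO and WT from left to right and bars for the mean and SD. The HO libraries lie above every WT library for Gcg over Pyy and below every WT library for Insl5 over Gcg, and DHO overlaps HO in both, with HO replicate 2 at the bottom of both Insl5 panels.

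Somatostatin changed against the direction of the other tested genes. SST restrains the release of most gut hormones and comes from D cells and from enteric neurons. Sst (chromosome 16, 23889573 to 23891342) had a lowest, median and highest level of 4.24, 9.16 and 20.9 FPKM in DHO, 13.7, 27.9 and 77.4 FPKM in HO and 4.19, 11.4 and 19.7 FPKM in WT. Of the HO libraries, 8 lay above every WT library, and replicates 3 and 6, at 13.7 and 19.6 FPKM, lay inside the WT range. Sst fell by 1.44 ± 0.30 in DHO against HO (limma adjusted p = 7.48e-05) and rose by 1.37 ± 0.29 in HO against WT (adjusted p = 9.91e-05). HO replicate 2 had the highest level, and without it the changes were -1.28 ± 0.28 and 1.21 ± 0.27. In HO replicate 7, where Epcam was 0.646 FPKM, Sst was still at 28.25 FPKM. Neuronal markers moved with Sst. Of 10 tested enteric neuron markers, 10 fell in DHO against HO and 9 rose in HO against WT (median log2 fold change 1.20). Over all tested genes, 29.7% fell and 33% rose in these comparisons. The sum over 13 marker genes was 43.4 to 158 FPKM in DHO, 272.5 to 563 FPKM in HO and 45.8 to 162 FPKM in WT. A large part of it was the peptide gene Vip, at 70.3 to 342 FPKM in HO and 12.4 to 36.4 FPKM in WT. Elavl4, an RNA-binding protein gene of neurons, was at 0.607 ± 0.129 FPKM in DHO, 1.43 ± 0.57 FPKM in HO and 0.704 ± 0.396 FPKM in WT (SD, n = 10, 10 and 11). The part of neurons in the Sst result was not tested.

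Secretin, Sct (chromosome 7, 141278329 to 141279174), which prompts bicarbonate secretion, turned on 1 library. It had a lowest, median and highest level of 1.83, 3.47 and 9.17 FPKM in DHO, 0, 0.309 and 55.0 FPKM in HO and 1.52, 2.63 and 3.86 FPKM in WT. The 55.0 FPKM were in HO replicate 2, and the other 9 HO libraries held at most 1.12 FPKM, below every DHO and every WT library. Sct rose by 1.65 ± 0.52 in DHO against HO (limma adjusted p = 0.00587) and fell by 1.29 ± 0.51 in HO against WT (adjusted p = 0.0249). Without HO replicate 2 the changes were 2.27 ± 0.23 (adjusted p = 6.08e-10) and -1.90 ± 0.23 (adjusted p = 1.05e-08). The fall against WT no longer passed without HO replicate 6 (-1.15, adjusted p = 0.0506) or without HO replicate 7 (-1.15, adjusted p = 0.0504). The values imply 0 to 1224 fragments of Sct in HO, with a median of 7, against 29 to 88 in WT.

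Cholecystokinin, Cck (chromosome 9, 121489824 to 121495694), which contracts the gallbladder and stimulates pancreatic secretion, reached 1 FPKM in 9 libraries and so stayed out of the main test. Its lowest, median and highest levels were 0.280, 0.626 and 4.67 FPKM in DHO, 0.214, 1.82 and 7.02 FPKM in HO and 0.0217, 0.229 and 0.531 FPKM in WT, the last from 1 to 25 implied fragments. High levels were scattered, with 7.02 and 6.58 FPKM in HO replicates 7 and 2, the HO libraries with least and most Epcam, and 4.67 and 3.33 FPKM in DHO replicates 8 and 9. Fitted in limma without the filter on low values, Cck rose by 1.50 ± 0.38 in HO against WT (adjusted p = 0.00145), where 23.8% of 27623 genes rose. DHO did not pass against HO (-0.53 ± 0.39, adjusted p = 0.304), where 22.1% fell, or against WT (0.97 ± 0.38, adjusted p = 0.110), where 4.64% of all genes rose and 4.43% fell. Against HO the difference was -0.94 without DHO replicates 8 and 9 (limma adjusted p = 0.0312), -0.33 without HO replicate 2 (adjusted p = 0.513) and -0.74 without all 3 (adjusted p = 0.0648).

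TPH1 is the rate-limiting enzyme of serotonin synthesis in enterochromaffin cells. Tph1 (chromosome 7, 46644641 to 46672537) had a lowest, median and highest level of 1.33, 2.78 and 11.2 FPKM in DHO, 0.294, 0.795 and 2.24 FPKM in HO and 1.05, 2.05 and 2.77 FPKM in WT. The ranges overlapped in every pair of groups, and DHO replicates 8 and 9, at 9.78 and 11.2 FPKM, lay far above the rest of DHO, which ended at 3.48 FPKM. Tph1 rose by 1.45 ± 0.28 in DHO against HO (limma adjusted p = 3.41e-05) and fell by 0.81 ± 0.27 in HO against WT (adjusted p = 0.00940). The difference between DHO and WT was 0.64 ± 0.27 (adjusted p = 0.0903). It was 0.25 ± 0.21 without DHO replicates 8 and 9 (adjusted p = 0.470), and passed without DHO replicate 1 (0.75 ± 0.27, adjusted p = 0.0443). It also passed with a term for the division of the libraries by Gm15564 level (0.68 ± 0.23, limma adjusted p = 0.0208), and in the Gm15564-high libraries alone (1.12 ± 0.39, adjusted p = 0.0389). In both of these fits more of all tested genes passed than in the main fit, as given at the end. Replicates 8 and 9 are among the 4 DHO libraries of the Gm15564-high set.

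Mast cell markers were followed because mast cells also use Tph1. Of 10 such genes 4 were tested, and their sum was 13.8 to 42.6 FPKM in DHO, 15.7 to 104 FPKM in HO and 7.62 to 17.1 FPKM in WT. Cpa3, a mast cell protease gene, reached at most 0.385 FPKM and the receptor subunit gene Ms4a2 at most 0.0427 FPKM in any library, while the growth factor receptor gene Kit, also active in pacemaker cells of the gut wall, was at 5.95 ± 1.60, 5.74 ± 2.33 and 7.29 ± 1.56 FPKM (SD) in DHO, HO and WT. Hdc, the histidine decarboxylase gene, reached 98.5 FPKM in 1 library and rose by 5.37 ± 0.52 in HO against WT, while Cma1 fell by 1.92 ± 0.29 and Kit and Mcpt1 did not pass there (-0.37 and -0.10). Between DHO and WT the protease genes Cma1 (1.49 ± 0.29, limma adjusted p = 0.00116) and Mcpt1 (1.29 ± 0.34, adjusted p = 0.00912), named after their values were seen, were the 2 markers that passed. The part of mast cells in the Tph1 values was not tested.

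Neurod1 (chromosome 2, 79452637 to 79456636), a transcription factor gene that acts late in enteroendocrine differentiation, reached 1 FPKM in 8 libraries. It had a lowest, median and highest level of 0.363, 0.868 and 1.82 FPKM in DHO, 0, 0.0605 and 0.231 FPKM in HO and 0.421, 0.850 and 1.38 FPKM in WT. No HO library reached either of the other groups, and the HO values stand on 0 to 20 implied fragments. In limma without the filter on low values it rose by 1.33 ± 0.15 in DHO against HO (adjusted p = 1.41e-08), where 21.6% of 27623 genes rose, and fell by 1.25 ± 0.15 in HO against WT (adjusted p = 1.98e-08), where 24.1% fell. DHO differed from WT by 0.08 ± 0.15 (adjusted p = 0.844).

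Other transcription factors of the lineage were counted the same way. Of 18 listed, 7 were tested, and 5 rose in DHO against HO and 5 fell in HO against WT, with none passing in DHO against WT. The shares of all tested genes were 39%, 38.4% and 21.2%, the last in either direction. INSM1 is a zinc-finger factor of endocrine differentiation, ATOH1 sets the secretory fate, and FOXA1 and FOXA2 are forkhead factors required for L cells. Insm1 was at 1.73 ± 0.35 FPKM in DHO, 0.166 ± 0.173 FPKM in HO and 1.55 ± 0.42 FPKM in WT (SD), and fell by 1.63 ± 0.12 (log2, SE) in HO against WT with no overlap (limma adjusted p = 6.48e-13). Foxa2, Foxa1 and Atoh1, which goblet cells also express, fell by 4.77 ± 0.35, 3.87 ± 0.34 and 4.94 ± 0.47 in HO against WT. The genes outside this pattern were the LIM-homeobox gene Isl1, also active in enteric neurons, which fell by 0.59 ± 0.26 in DHO against HO, and the chromatin gene Hmgn3, which rose by 0.998 ± 0.126 in HO against WT. Without HO replicate 2 Isl1 rose in HO against WT (0.61 ± 0.18, adjusted p = 0.00355), and without DHO replicates 8 and 9 Neurog3 rose in DHO against WT (0.70 ± 0.17, limma adjusted p = 0.00941). The list's median log2 fold change was 2.14 in DHO against HO, -1.74 in HO against WT and -0.14 in DHO against WT, where all tested genes had 0.10, -0.06 and 0.02.

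Genes of hormone processing and granule secretion split by direction. Of 24 listed, 19 were tested: 3 rose and 9 fell in DHO against HO, 9 rose and 6 fell in HO against WT, and 2 fell in DHO against WT, with list medians of -0.35, 0.08 and -0.16. The shares of all tested genes were 39% and 29.7% for a rise and a fall in DHO against HO, 33% and 38.4% in HO against WT, and 8.7% for a fall in DHO against WT, so that 2 of 19 lies near the background. DDC, which turns 5-hydroxytryptophan into serotonin, is also an enzyme of absorptive cells, and Ddc was at 36.6 ± 17.8 FPKM in DHO, 0.749 ± 0.720 FPKM in HO and 39.0 ± 11.4 FPKM in WT (SD). It rose by 4.82 ± 0.33 in DHO against HO (limma adjusted p = 3.01e-13). The genes with lower levels in DHO than in HO included the synaptotagmin gene Syt13 (-1.48 ± 0.23), the granin-like peptide gene Vgf (-1.41 ± 0.22) and the prohormone convertase chaperone gene Scg5 (-1.06 ± 0.13), which neurons also express, and all 3 rose in HO against WT with no overlap (1.96 ± 0.23, 1.72 ± 0.22 and 0.84 ± 0.12). Neuronal markers moved with them, as given beside Sst, and their part was not tested. The 2 that fell in DHO against WT were the carboxypeptidase gene Cpe (-0.56 ± 0.15, limma adjusted p = 0.0101) and the glutaminyl cyclase gene Qpct (-0.47 ± 0.13, adjusted p = 0.0137). Without DHO replicates 8 and 9 Cpe did not pass (-0.43, limma adjusted p = 0.0578), and the vesicle gene Rab3b rose (0.60 ± 0.14, adjusted p = 0.00924).

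Among 14 other gut peptide genes, 7 were tested. Pancreatic polypeptide, Ppy, was the lone gene that rose in DHO against HO (4.55 ± 0.40, limma adjusted p = 2.69e-11) and fell in HO against WT (-4.60 ± 0.39, adjusted p = 6.81e-12), and it averaged 22.6 ± 12.9 FPKM in DHO, 0.604 ± 1.125 FPKM in HO and 21.9 ± 9.98 FPKM in WT (SD). The other 6 fell in DHO against HO and rose in HO against WT, among them the enkephalin precursor gene Penk (2.69 ± 0.21 in HO against WT), the vasoactive intestinal peptide gene Vip (2.65 ± 0.25) and the substance P precursor gene Tac1 (2.26 ± 0.22), which are peptides of enteric neurons. Tac1 was also the 1 gene of the list that passed between DHO and WT (0.65 ± 0.22, adjusted p = 0.0321), and did not pass without DHO replicates 8 and 9 (0.46, limma adjusted p = 0.148). The list medians were -2.52 in DHO against HO, 2.65 in HO against WT and 0.17 in DHO against WT. Over all tested genes, 29.7% fell in DHO against HO, 33% rose in HO against WT and 12.5% rose in DHO against WT. Gip and Gast, hormone genes of the upper gut, reached at most 0.200 and 0.225 FPKM.

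Sensing receptors were mostly too low to test, with 5 of 16 tested, of which 2 rose and 2 fell both in DHO against HO (median 0.43) and in HO against WT (median 0.46), which is near the shares of all tested genes. Olfr78, a short-chain fatty acid receptor of the olfactory family, rose by 1.19 ± 0.19 in DHO against HO (limma adjusted p = 1.68e-06) and fell by 1.53 ± 0.18 in HO against WT, and the fatty acid receptor gene Ffar4 rose by 3.19 ± 0.50 and fell by 3.02 ± 0.49. The irritant channel gene Trpa1 fell by 1.85 ± 0.40 in DHO against HO and rose by 2.63 ± 0.39 in HO against WT, and the angiotensin receptor gene Agtr1a fell by 1.47 ± 0.17 and rose by 0.99 ± 0.17. In DHO against WT, the short-chain fatty acid receptor gene Ffar2 rose (0.89 ± 0.21, adjusted p = 0.00509) and Agtr1a fell (-0.48 ± 0.17, limma adjusted p = 0.0385). Agtr1a did not pass without DHO replicates 8 and 9 (-0.42, adjusted p = 0.112).

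Receptors and clearance proteins of the hormones gave 11 tested genes of 24. In DHO against HO 7 rose and 3 fell, and in HO against WT 7 fell and 2 rose, with list medians of 1.44 and -2.18. The shares of all tested genes were 39% and 29.7% for a rise and a fall in DHO against HO. In HO against WT 38.4% fell and 33% rose. DPP4, which cleaves glucagon-like peptide 1 and PYY, monoamine oxidase A and the serotonin transporter SLC6A4, the last 2 of which remove serotonin, and the serotonin receptor HTR4 were all lower at the RNA level in HO. Slc6a4 was at 6.55 ± 3.88 FPKM in DHO, 0.163 ± 0.195 FPKM in HO and 13.6 ± 3.25 FPKM in WT (SD), and Dpp4 was at 6.70 ± 1.56, 0.906 ± 0.445 and 7.47 ± 1.24 FPKM. Maoa rose by 3.93 ± 0.32 in DHO against HO (limma adjusted p = 5.87e-12), and Htr4 by 1.64 ± 0.19 (adjusted p = 7.62e-09). Of these 11, 5 passed between DHO and WT, all lower in DHO, against 8.7% of all tested genes: Slc6a4 (-1.31 ± 0.33, adjusted p = 0.00680), Htr4 (-0.61 ± 0.19, adjusted p = 0.0207), the neuropeptide Y receptor gene Npy1r (-0.74 ± 0.25, adjusted p = 0.0317) and the somatostatin receptor genes Sstr1 (-0.69 ± 0.22, adjusted p = 0.0291) and Sstr2 (-0.60 ± 0.18, limma adjusted p = 0.0179). The list median in DHO against WT was -0.57. DHO replicates 8 and 9 stood apart here, with 45.4 and 58.5 FPKM summed over the list against 163.9 to 237.5 FPKM in the other 8 DHO libraries. Without them 1 of the 11 passed, Slc6a4 (-0.77 ± 0.19, limma adjusted p = 0.0110), and the other 4 lay between -0.47 and -0.30 (adjusted p from 0.0806 to 0.167). Rxfp4, the receptor gene of INSL5, and Glp1r reached at most 0.163 and 0.174 FPKM.

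Set against the epithelium, Chga, Chgb, Gcg and Pyy fell by less than Epcam in HO against WT. The log2 ratio of each gene to Epcam, both as FPKM + 0.5, was compared between groups by permutation tests with 100000 resamples, 30 tests in all. In HO against WT the ratio was 3.76 higher for Chga, with no overlap (adjusted p = 8.57e-05), 3.34 higher for Chgb (adjusted p = 0.000273), 2.92 higher for Gcg (adjusted p = 0.00015) and 1.25 higher for Pyy (permutation, adjusted p = 0.00409). As a plain ratio, Chga to Epcam had a median of 0.0396 in DHO, 0.457 in HO and 0.0323 in WT. The same ratio for Sst was 7.00 lower in DHO than in HO and 6.97 higher in HO than in WT, without overlap in either. Between DHO and WT, Pyy was 0.49 higher relative to Epcam (permutation, adjusted p = 0.0384), and 0.25 higher without HO replicate 2 and DHO replicates 8 and 9, of which the last 2 held 381.6 and 648.5 FPKM of Epcam against a DHO median of 929 FPKM. For Insl5 the ratio differed by 0.16 in HO against WT (permutation, adjusted p = 0.924), though many of its HO levels lie near the added 0.5 FPKM. For Cck, Sct, Tph1 and Neurod1 most levels in at least 1 group lie near it, so their ratios are not read here. In HO replicates 4, 7 and 9 the same holds for Gcg and Pyy, and in HO replicate 7 for Epcam itself (0.646 FPKM). A ratio within a library shows unequal change, not that either gene stayed put.

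**Figure D5:**
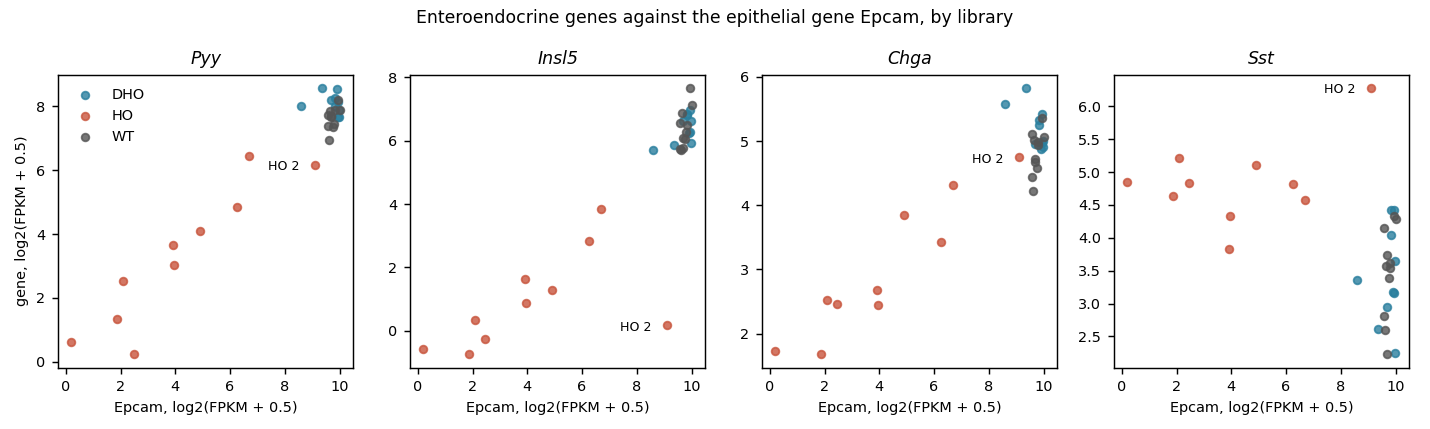
Pyy, Insl5, Chga and Sst against the epithelial gene Epcam in each library, both as log2(FPKM + 0.5), coloured by group (DHO, HO, WT). HO libraries with more Epcam held more Pyy and Chga, HO replicate 2 pairs the highest HO level of Epcam with 0.629 FPKM of Insl5, and HO points for Sst lie high across the whole range of Epcam.

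Other cell types were checked by their first listed markers. The glial gene Sox10 was at 1.84 ± 0.79 FPKM in DHO, 4.36 ± 1.33 FPKM in HO and 2.21 ± 0.998 FPKM in WT (SD), and rose in HO against WT (0.88 ± 0.21, limma adjusted p = 0.000372). Of the 6 glial genes 4 rose and 2 fell there, Erbb3 (-3.79 ± 0.32) and S100b (-0.60 ± 0.24). Over all tested genes, 33% rose and 38.4% fell in HO against WT, and 8.7% fell in DHO against WT. The smooth muscle genes Myh11 and Acta2 fell by 1.94 ± 0.29 and 1.10 ± 0.26 (log2, SE) in HO against WT and by 1.03 ± 0.29 and 0.85 ± 0.26 in DHO against WT (limma adjusted p = 0.0120 and 0.0224 in DHO against WT). Of the 10 smooth muscle genes 9 fell in DHO against WT, and 1 did without DHO replicates 8 and 9. The stem cell genes Lgr5 and Axin2 fell by 2.29 ± 0.17 and 2.34 ± 0.14 in HO against WT, 2 of 4 that fell among 6 stem cell genes, while Olfm4 rose by 4.89 ± 0.36 and Smoc2 did not pass (0.05 ± 0.22). The epithelial gene Vil1 fell by 5.55 ± 0.62 in HO against WT. Neutrophil S100a9 lay at 0.0483 to 1773 FPKM in DHO, 2257 to 27640 FPKM in HO and 0 to 4.99 FPKM in WT. Of 8 tested neutrophil genes 7 rose in HO against WT and Ly6g fell (-2.07 ± 0.42). The pancreatic protease gene Ctrb1 reached at most 0.203 FPKM and the pancreatic lipase gene Pnlip at most 0.0849 FPKM, and the insulin genes Ins1 and Ins2 were not analysed here. The elastase gene Cela1, the 1 tested gene of the pancreas list, reached 614 FPKM, fell by 5.80 ± 0.55 in HO against WT and by 1.70 ± 0.55 in DHO against WT, and did not pass in DHO against WT without DHO replicates 8 and 9 (-0.76). Of small intestinal genes, Apoa4 reached at most 1.30 FPKM, while the ileal bile acid binding protein gene Fabp6 was at 51.4 ± 47.9, 0.112 ± 0.195 and 11.5 ± 2.06 FPKM in DHO, HO and WT. Between DHO and WT Fabp6 did not pass (1.25 ± 0.49, adjusted p = 0.0642), the retinol binding protein gene Rbp2 fell (-1.64 ± 0.54, limma adjusted p = 0.0321) and Fabp2 differed by -0.12 ± 0.62. Their parts in the hormone results were not tested.

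The order of the genes by median FPKM, a level per gene length, was alike in DHO and WT and different in HO. In DHO it ran Pyy (269), Insl5 (86.9), Gcg (53.4), Chgb (51.0), Chga (34.5), Sst (9.16), Sct (3.47), Tph1 (2.78), Neurod1 (0.868) and Cck (0.626). In HO, Sst came first with 27.9 FPKM, or 48.0% of the summed medians, ahead of Pyy (9.92), Chgb (6.05), Chga (5.58), Gcg (4.66), Cck (1.82), Insl5 (1.07), Tph1 (0.795), Sct (0.309) and Neurod1 (0.0605). The WT order was that of DHO except that Gcg (28.5) stood behind Chgb (39.7) and Chga (30.1), with Pyy at 206, Insl5 at 76.6, Sst at 11.4, Sct at 2.63, Tph1 at 2.05, Neurod1 at 0.850 and Cck at 0.229 FPKM. Pyy made up 52.6% of the summed medians in DHO and 51.8% in WT. The ranges of Pyy and Insl5 were apart in DHO and overlapped in WT. In both groups the ranges of neighbours among Insl5, Gcg, Chgb and Chga overlapped, and so did those of Sct and Tph1. In HO the ranges of all neighbours overlapped.

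A second division of the libraries ran across the genotypes. The noncoding RNA Gm15564 was at 0 to 0.0736 FPKM in 17 libraries and at 6.27 to 14.5 FPKM in 14 (4 DHO, 5 HO and 5 WT), and the labels name no batch. The ratio of Chga to Chgb in plain FPKM separated these sets in each genotype. It was 0.441 to 0.522 in the Gm15564-high and 0.698 to 0.964 in the Gm15564-low DHO libraries, 0.561 to 0.770 and 1.05 to 1.34 in HO, and 0.467 to 0.595 and 0.756 to 0.883 in WT. The ratio of Gcg to Pyy differed in the other direction in DHO and WT, with 0.278 to 0.670 in high and 0.0818 to 0.202 in low DHO libraries and 0.169 to 0.265 in high and 0.0971 to 0.122 in low WT libraries, and overlapped in HO. Insl5 to Gcg also separated the sets in DHO and WT and overlapped in HO. It was 0.2995 to 1.21 in high and 2.16 to 3.38 in low DHO libraries. In WT it was 1.66 to 1.95 in high and 2.66 to 5.74 in low libraries. Among WT libraries, Neurod1 was at 1.02 to 1.38 FPKM in the high set and 0.421 to 0.850 FPKM in the low set, and Tph1 at 2.25 to 2.77 and 1.05 to 2.05 FPKM. These contrasts were chosen after the values were seen and carry no test. A difference between the sets in the effect of genotype passed for none of the 8 tested genes in any of the 3 comparisons (limma interaction, lowest adjusted p = 0.134, for Tph1 in DHO against HO). The within-set changes in DHO against HO were 2.62 ± 0.47 in high and 1.88 ± 0.33 in low libraries for Chga, 4.36 ± 1.03 and 3.22 ± 0.65 for Gcg, and 4.77 ± 0.79 and 5.98 ± 0.35 for Insl5. Sct in DHO against HO was 2.30 ± 0.44 in high libraries and 1.01 ± 0.85 in low libraries, which include HO replicate 2, and the low-set value did not pass (limma adjusted p = 0.299).

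Genes with the most similar pattern were found by the Pearson correlation of deviations from the group means over the 31 libraries, a description in which the widely spread HO libraries weigh most. Chgb and Gcg were each other's nearest gene (r = 0.949), and Gcg and Pyy reached 0.884 while Chgb and Sst were at 0.056. For Chga the nearest 3 were the growth factor receptor gene Fgfr4 (0.926) and the keratin genes Krt7 (0.906) and Krt18 (0.895). After each other, Chgb and Gcg shared Galnt3, a mucin-type glycosyltransferase gene (0.935 and 0.911), and each had 1 further gene, Vsig1 for Chgb (0.924) and Clca3b for Gcg (0.918). Pyy lay nearest to Rab25 (0.925), Sh2d4a (0.915) and Fbp2 (0.912), and Insl5 to Hoxb13 (0.832), Gm52305 (0.811) and Thbs4 (0.811). Hoxb13 was at 55.2 to 461 FPKM in DHO, 0 to 19.4 FPKM in HO and 313.8 to 493.4 FPKM in WT, with 55.2 and 77.1 FPKM in DHO replicates 8 and 9, where Insl5 held 51.2 and 57.4 FPKM, 2 of the 3 lowest values in that group with 60.3 FPKM in replicate 7. For Sct the nearest were Pnliprp2 (0.944), Sdcbp2 (0.943) and Clca4a (0.930), whose highest HO levels were 8.80, 238 and 444 FPKM. Their HO medians were 0.0488, 3.64 and 0.201 FPKM. Sct itself held 55.0 FPKM in HO replicate 2 and at most 1.12 FPKM in the other 9 HO libraries. Correlations without HO replicate 2 were not computed. Sst lay nearest to the gastrin-releasing peptide gene Grp (0.863), Nnat (0.849) and Hoxb5 (0.819), and Tph1 to B4galt6 (0.832), Agps (0.829) and Mtap (0.809).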

How the data were processed

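Whole mouse colon was profiled by RNA-seq in 10 DHO, 10 HO and 11 WT libraries. Per the labels' protocols RNA was taken up in TRIzol and libraries were made with the VAHTS Universal V6 kit. The authors deposited FPKM values per gene, and the submitters' processing notes name fastp, HISAT2, HTSeq and mm10, with no version. FPKM values are not counts, so no count model was used.

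Group means of log2(FPKM + 0.5) were fitted over all 31 libraries with limma 3.58.1 in R 4.3.3 (variance trend, robust moderation) on the 12812 genes that reached 1 FPKM in 10 or more libraries, and p-values were adjusted by Benjamini-Hochberg over those genes at a threshold of 0.05. Cck and Neurod1 missed that filter and were taken from the same fit on all 27623 genes. The procedure was tested on simulated data. Ratios between genes were compared with two-sided permutation tests of 100000 resamples (SciPy 1.17.1), whose smallest possible p is 2e-05. Lists were also counted without HO replicate 2 and without DHO replicates 8 and 9, an alternative chosen after seeing the data. Fragments per library were recovered from the steps between low FPKM values with GENCODE gene lengths, and at least 89 values agreed in each library against at most 3 for the next best depth. No 2 libraries were identical (log2 values correlated by at most 0.9961). Replicate numbers only name the libraries of a group. Other pseudocounts, filters, scalings, fits and left-out libraries were tried.

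The members, the gene lists and the tests were chosen with earlier results of these data known. Named genes are the members, up to 4 tested genes per pathway list with the smallest p in HO against WT, the first 2 genes of each marker list (2 of these genes are not reported here), the 3 most similar tested genes per tested member and the targeted genes. Others named, because a count was small or a library stood apart, were chosen after their values were seen. Positions are on GRCm38 (mm10).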

Additional observations from a re-analysis of the deposited data

Results flagged for a closer look

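Each of the 10 genes was examined in DHO and in HO, 20 groups of 10 libraries, for a highest or lowest library whose log2(FPKM + 0.5) lay far from the nearest other one, by Dixon's ratio of that gap to the whole range, against a critical value of 0.466. Chance alone marks about 1 group in 20, and 2 were marked, both for Sct. In HO replicate 2 Sct was at 55.0 FPKM, with a gap of 0.75 of the range, while the other 9 HO libraries held at most 1.12 FPKM. That library also held 543 FPKM of Epcam and no Hoxb13. In DHO replicate 9 Sct was at 9.165 FPKM, with a gap of 0.529 of the range, while the other 9 DHO libraries held at most 4.05 FPKM. That library also held the highest Chga, Chgb, Pyy and Tph1 of its group and 77.1 FPKM of Hoxb13 against a DHO median of 322 FPKM.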

How the results depend on the processing

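No called change of the 10 genes changed sign under any alternative. Of the fold changes recomputed under an alternative, 446 stayed on their side of the threshold and 16 did not. For Sct in HO against WT the change no longer passed with a pseudocount of 1 FPKM (-0.8547), after quantile normalization (-0.9969), with only those 2 groups (-1.2869) or in Gm15564-low libraries alone (-0.8904), and leaving out single libraries gave -1.9022 to -1.1472. Sct in DHO against HO did not pass in Gm15564-low libraries (1.0085), nor Tph1 in HO against WT after quantile normalization (-0.5084). Cck in DHO against HO passed without DHO replicates 8 and 9 (-0.9434), and not without these and HO replicate 2 (-0.7433). In DHO against WT the number of the 10 genes called was 2 with only those 2 groups (Gcg 0.9478, Pyy 0.4483), 1 with the Gm15564 set as a term, 1 in Gm15564-high libraries alone, and 0 to 1 on leaving out single libraries. Tph1 was the 1 gene (0.6779 with the term, 1.1176 in Gm15564-high libraries, 0.4566 to 0.7531 on leaving out single libraries). Cck, fitted without the filter on low values, passed there with a pseudocount of 0.1 FPKM (1.6513), with only those 2 groups (0.9723) and in Gm15564-high libraries (1.9566). DHO replicates 8 and 9 are among the 4 DHO libraries of the Gm15564-high set. The count over all tested genes in DHO against WT, 2719, became 1306 without DHO replicates 8 and 9, 1745 without these and HO replicate 2 (an alternative chosen after seeing the data), 4550 with the set as a term, 68 in Gm15564-low and 5102 in Gm15564-high libraries. The causes were not tested. Depth limits Neurod1, Sct and Cck, which rest on few fragments in at least 1 group. No paired analysis was possible because the labels give no replicate number that ties libraries across genotypes.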
